A study of Mus musculus with 6 samples.

Results

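Complex III, the cytochrome bc1 complex, takes electrons from reduced coenzyme Q (CoQ) in the inner mitochondrial membrane and passes them through its Rieske iron-sulfur protein and cytochrome c1 to cytochrome c. Cytochrome c is a small heme protein that carries them on to complex IV. Liver cells make CoQ with an enzyme that needs Pdss2 for its isoprenoid side chain, so complex III draws its electrons from the carrier that Pdss2 helps to make, whose level these arrays do not measure. The 9 nuclear-encoded subunit genes examined here were Uqcrc1, Uqcrc2, Uqcrfs1, Cyc1, Uqcrb, Uqcrq, Uqcrh, Uqcr10 and Uqcr11, and Cycs, which encodes somatic cytochrome c, was added to them. They were chosen by name, and every probe set annotated to exactly 1 of these symbols was taken, which gave 21 of the 45037 probe sets tested and 10 of the 18193 genes with a probe set of their own.

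Whole-liver RNA was read on Affymetrix mouse arrays, 1 for each animal, in 3 mutants of genotype B6.Alb/cre,Pdss2loxP/loxP and in 3 controls of genotype B6.Pdss2loxP/loxP. All 6 mice carried loxP-flanked Pdss2 on both chromosomes, and only the mutants carried cre, which is driven by the albumin promoter and removes part of Pdss2 in hepatocytes, so that an effect of cre and an effect of Pdss2 loss cannot be told apart and other liver cells keep the gene. The mutants were 176, 178 and 224 days old, the controls were 209, 213 and 140 days old, all were male and untreated, the genotypes were caged apart, and control 1 was named in the labels as the concurrent control of mutant 3. Values are log2 signals per probe set, and differences are mutant minus control on that scale.

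The 6 arrays did not fall into uniform groups. On Pdss2 probe set 1444085_at, the brightest of 3, mutants read 6.94, 6.88 and 7.05 and controls 7.46, 7.47 and 7.56, with a limma adjusted p of 0.118, and the sources used here do not place this probe set relative to the deleted part. Its other probe sets, 1430723_at and 1459473_at, differed by 0.40 and 0.35. The 3' probe set of Gapdh, an array control for RNA quality, read 11.91 in mutant 1, 10.45 in mutant 2 and 9.84 in mutant 3 against 11.83 to 12.31 in controls. Its 3' minus 5' signal was 0.45, -1.06 and -1.78 in mutants 1 to 3 and 2.02 to 2.31 in controls. For Actb, the other such control, that value was 2.60, 3.95 and 4.50 in mutants 1 to 3 and 3.11 to 3.90 in controls, which overlapped. The hybridization spike BioB was higher on each mutant array than on each control array, by 1.82 on average. Of 5 measured hepatocyte markers none passed the test, and the log2 of their summed signal was 15.54 to 15.99 in mutants and 15.93 to 15.99 in controls. Of 8 markers of sinusoidal endothelium 2 rose, Stab1 by 1.39 and Stab2 by 1.82, and their log2 summed signal was 12.44 to 13.19 in mutants and 11.18 to 12.05 in controls. Of the markers of Kupffer cells (6 measured), bile duct (4), stellate cells (5) and lymphocytes (4) none passed the test, and no marker was at 0. The log2 summed signal of the Kupffer cell markers was 9.74 to 10.20 in mutants and 8.99 to 9.66 in controls, and that of the bile duct markers was 8.30 to 8.71 against 7.89 to 8.06. In whole liver, fewer cells of a type and less RNA per cell cannot be told apart. The part of these measures in the results below was not tested.

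Most probe sets of complex III and cytochrome c read lower in mutants, but the only change that passed the test was a rise. Of the 21 probe sets, 16 had a difference below 0, and their median difference was -0.84, while over all probe sets tested 34.8% lay below 0 and the median was 0.17. The groups are those of the labels. Pdss2 probe set 1444085_at was lower in each mutant, as were 10.7% of all probe sets. Pdss2 probe sets 1430723_at and 1459473_at differed the other way, by 0.40 and 0.35. By quantitative PCR the study reports a strong loss of Pdss2 transcript in liver of this genotype. The study describes the oxidative phosphorylation pathway as a whole, a wider set of genes, as upregulated in these mutants. That is a gene set enrichment score, a different measure from the sign of single probe sets. Its direction is opposite to most of the probe sets here and the same as the called rise. For liver mitochondria of this genotype the study also reports unchanged complex III enzyme activity and decreased complex I-III activity. At a Benjamini-Hochberg adjusted p under 0.05 from limma, 1 of the 21 was higher, against 1.25% of all probe sets, and 0 were lower, against 0.746%. At an unadjusted p under 0.05 from limma 9 were lower and 4 were higher, against 9.54% and 15.7% of all probe sets. Each mutant lay below each control on 8 of the 21 and above each control on 5, against 10.7% and 21.2% of all probe sets. With 3 mice against 3, an exact two-sided permutation test cannot give a p below 0.1.

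The mutants were more spread than the controls. The SD was larger in mutants than in controls on 18 of the 21 probe sets, against 59.4% of all. Mutant 1 was the highest of the mutants on 12 probe sets and mutant 3 the lowest on 14, against 27.5% and 31.2% of all probe sets. A difference of -1 or lower was found on 7 of the 21, against 4.75% of all probe sets. On these 7, mutant 1 was the highest and mutant 3 the lowest every time, and mutants 2 and 3 lay below each control. The median deviation of the 21 probe sets from the mean of the controls was -0.22 in mutant 1, -0.69 in mutant 2 and -1.0 in mutant 3, and it was -0.09, -0.03 and 0.09 in controls 1 to 3. The 3' signal of Gapdh, given above, was also near the controls in mutant 1 and lower in mutants 2 and 3. The middle signal of Gapdh and the 5' signal of Actb also fell from mutant 1 to mutant 3. The middle signal of Gapdh was 11.55, 9.64 and 8.96 in mutants 1 to 3 and 10.61 to 11.21 in controls. The 5' signal of Actb was 10.36, 9.08 and 8.48 in mutants 1 to 3. There mutant 1 lay above all controls, mutant 2 among them and mutant 3 below them. The 3' signal of Actb and the 5' signal of Gapdh did not share that order. The 3' signal of Actb was 12.96, 13.02 and 12.97 in mutants 1 to 3 and 12.90 to 13.15 in controls. The 5' signal of Gapdh was 11.46, 11.51 and 11.61 in mutants 1 to 3 and 9.64 to 10.01 in controls. A link of these signals to the members was not tested. The concurrent pair alone, mutant 3 minus control 1, gave a median of -0.88.

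**Figure D1:**
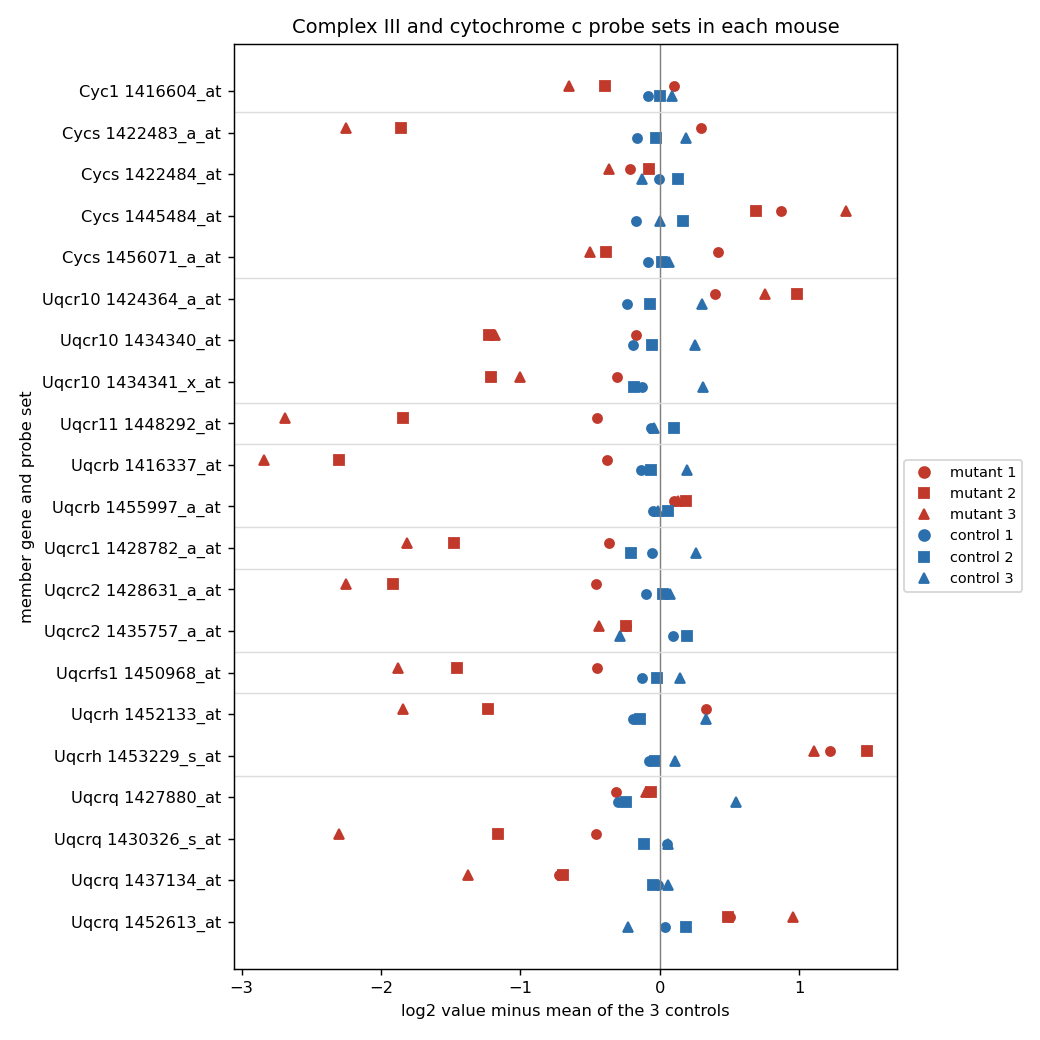
Log2 value minus the mean of the 3 controls (horizontal axis) for each of the 21 probe sets of complex III and cytochrome c (vertical axis), with mutants in red and controls in blue and 1 symbol shape per mouse number. On the 7 probe sets with a difference of -1 or lower mutants 2 and 3 sit to the left of every control and mutant 1 is the mutant nearest to them, while on 1453229_s_at of Uqcrh all 3 mutants sit to the right.

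The core proteins Uqcrc1 and Uqcrc2 form the large part of complex III that faces the matrix and carry no redox group. On 1428782_a_at of Uqcrc1 mutants read 9.63, 8.52 and 8.19 and controls 9.94, 9.80 and 10.26. Each mutant was below each control, and the SD was 0.757 among the 3 mutants and 0.238 among the 3 controls. The difference of -1.22 (standard error 0.37) did not pass the test (limma adjusted p = 0.101). On 1428631_a_at of Uqcrc2 mutants read 9.74, 8.28 and 7.94 and controls 10.09, 10.22 and 10.27, again without overlap. The difference was -1.54 (standard error 0.43, limma adjusted p = 0.0863), which put mutants at 34.4% of controls on this probe set. The second probe set of Uqcrc2, 1435757_a_at, read 11.61, 11.61 and 11.42 in mutants and 11.95, 12.05 and 11.57 in controls. Here the groups overlapped, and the difference was -0.31 (standard error 0.21, limma adjusted p = 0.403). The gap between both Uqcrc2 probe sets was 1.88 in mutant 1, 3.34 in mutant 2 and 3.48 in mutant 3 and 1.30 to 1.86 in controls.

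The redox subunits are Uqcrfs1, the Rieske iron-sulfur protein, and Cyc1, cytochrome c1, each read by 1 probe set. On 1450968_at of Uqcrfs1 mutants read 10.30, 9.29 and 8.87 and controls 10.62, 10.73 and 10.89. Each mutant was below each control, by a mean of -1.26 (standard error 0.35, limma adjusted p = 0.0863), or 41.7% of the control level. On 1416604_at of Cyc1 mutants read 11.09, 10.59 and 10.34 and controls 10.90, 10.98 and 11.07. Mutant 1 was above all controls and mutants 2 and 3 were below them, and the difference was -0.31 (standard error 0.24, limma adjusted p = 0.454), or -0.52 without mutant 1 and -0.15 without mutant 3. The difference between the changes of Uqcrfs1 and Cyc1 was not tested.

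Among the small subunits, which carry no redox group, Uqcr11 was read by 1 probe set and the others by several. Uqcr11, a short membrane subunit, read 10.24, 8.85 and 8.0 in mutants and 10.63, 10.79 and 10.65 in controls on 1448292_at. The groups did not overlap, the mutant SD was 1.13 against 0.0867 in controls, and the difference was -1.66 (standard error 0.50, limma adjusted p = 0.0985). Uqcrb, a subunit linked to CoQ binding beside cytochrome b, read 9.35, 7.43 and 6.89 in mutants and 9.60, 9.67 and 9.92 in controls on 1416337_at. This was the lowest difference of the 21, at -1.84 (standard error 0.57, limma adjusted p = 0.102). On the other Uqcrb probe set, 1455997_a_at, mutants read 13.47, 13.55 and 13.50 and controls 13.32, 13.43 and 13.36. The mutants were narrowly above the controls there, with a difference of 0.14 (standard error 0.18, limma adjusted p = 0.665), which became -0.021 once arrays were centred on their medians. The highest value of any probe set on any array was 14.63.

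Uqcrh, the acidic hinge protein that helps cytochrome c dock to cytochrome c1, had the only called change, a rise. On 1453229_s_at mutants read 11.62, 11.89 and 11.52 and controls 10.33, 10.37 and 10.52, so that each mutant lay above each control. Mutants averaged 11.68 ± 0.193 (SD, n = 3) against 10.41 ± 0.0979 (SD, n = 3) for controls, a rise of 1.27 (standard error 0.20, limma adjusted p = 0.0345). The ending s_at marks a probe set whose probes match transcripts of more than 1 gene, and RefSeq names 2 pseudogenes of Uqcrh, so this rise may not belong to Uqcrh alone. On the other Uqcrh probe set, 1452133_at, mutants read 10.19, 8.62 and 8.02 and controls 9.66, 9.72 and 10.19. There the sign was opposite, at -0.91 (standard error 0.51, limma adjusted p = 0.307), and mutant 1 was level with the highest control. The gap between both probe sets was 1.44, 3.27 and 3.50 in mutants and 0.67, 0.66 and 0.33 in controls. The rise did not pass once arrays were centred on their medians (1.11, limma adjusted p = 0.0516), nor without mutant 2, mutant 3, control 1, control 2 or control 3 (limma adjusted p 0.0833 to 0.173), and it passed without mutant 1.

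Uqcr10, a short single-span membrane subunit, was read by 3 probe sets that differed in sign. On 1424364_a_at mutants read 11.03, 11.62 and 11.38 and controls 10.40, 10.56 and 10.93, with all mutants above all controls (difference 0.71, standard error 0.24, limma adjusted p = 0.124). On 1434340_at mutants read 7.23, 6.17 and 6.21 and controls 7.20, 7.34 and 7.65, with mutant 1 among the controls (difference -0.86, standard error 0.32, limma adjusted p = 0.146). The remaining one, 1434341_x_at, whose ending marks probes that may cross-hybridize, differed by -0.84 (standard error 0.28, limma adjusted p = 0.124). No value of Uqcr10 therefore passed the test in either direction.

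Uqcrq, a subunit next to cytochrome b, was read by 4 probe sets. On 1430326_s_at mutants read 10.89, 10.19 and 9.05 and controls 11.40, 11.23 and 11.41, and the difference was -1.30 (standard error 0.43, limma adjusted p = 0.115). The ending s_at sets the same limit as for Uqcrh, so this difference may not belong to Uqcrq alone. On 1437134_at mutants read 6.39, 6.42 and 5.74 and controls 7.10, 7.06 and 7.17, and the difference was -0.93 (standard error 0.24, limma adjusted p = 0.0723). On both of these each mutant was below each control. On 1452613_at mutants read 6.78, 6.76 and 7.23 and controls 6.31, 6.46 and 6.05, all mutants higher, with a difference of 0.65 (standard error 0.22, limma adjusted p = 0.126). The dim 1427880_at read 4.34 to 4.59 in mutants and 4.35 to 5.20 in controls and differed by -0.16 (standard error 0.27, limma adjusted p = 0.76).

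Cycs, the mobile carrier itself, was read by 4 probe sets. On 1456071_a_at, the brightest, mutants read 11.95, 11.15 and 11.03 and controls 11.45, 11.54 and 11.60. Mutant 1 was above the controls and mutants 2 and 3 were below them, so that the means differed by -0.15 (standard error 0.27, limma adjusted p = 0.767). On 1422483_a_at mutants read 10.11, 7.96 and 7.56 and controls 9.65, 9.78 and 10.003. The order of the mice was the same and the distances were greater, with a difference of -1.27 (standard error 0.60, limma adjusted p = 0.231). On 1422484_at mutants read 10.20, 10.34 and 10.05 and controls 10.41, 10.55 and 10.29, which overlapped (difference -0.22, standard error 0.19, limma adjusted p = 0.521). On 1445484_at, the dimmest of the 4, mutants read 7.02, 6.84 and 7.49 and controls 5.98, 6.32 and 6.16. There all mutants were above all controls, by 0.96 (standard error 0.23, limma adjusted p = 0.0675). RefSeq names 3 pseudogenes of Cycs, and the sources used here do not say which of these probe sets match them.

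Of the 6 members with several probe sets, Uqcrb, Uqcrh, Uqcr10, Uqcrq and Cycs had differences of both signs. That is 5 of 6, or 83.3%, against 50.8% of the 9010 genes with several probe sets on the array. Only Uqcrc2 kept 1 sign on all its probe sets. The sources used here do not place the probe sets along their transcripts, so the values cannot be assigned to parts of a transcript.

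**Figure D2:**
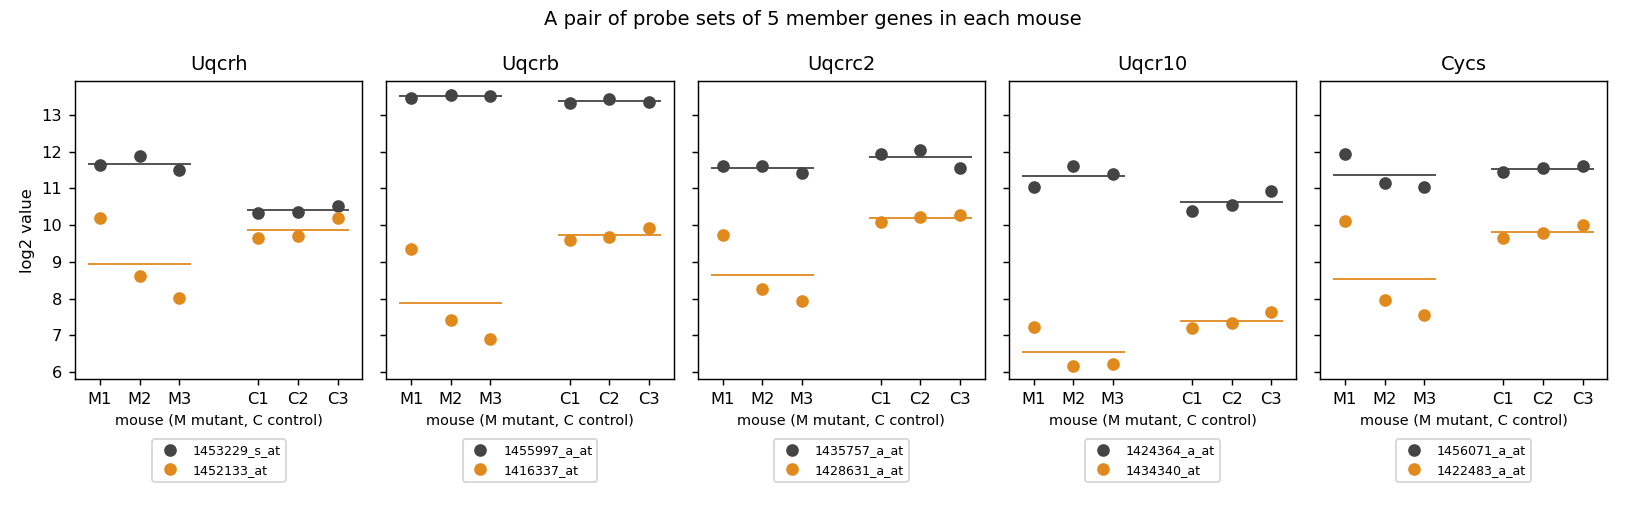
Log2 values (vertical axis) of a pair of probe sets for Uqcrh, Uqcrb, Uqcrc2, Uqcr10 and Cycs (panels) in mutants M1 to M3 and controls C1 to C3 (horizontal axis), with group means as lines; the heights of different probe sets cannot be compared, only each one across mice. In each panel the probe set in orange drops in M2 and M3, to 8.02 for Uqcrh in M3, while the one in black stays within 1 unit of its control mean or rises, to 11.89 for Uqcrh in M2.

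Mutant 1 set the outcome of the test for the lower probe sets. Without mutant 1, 10 of the 21 probe sets were lower and 1 was higher at an adjusted p under 0.05 from limma, against 5.66% and 2.86% of all probe sets, while without any other single mouse 0 were lower. Leaving out one of those other mice also left at most 2 of all probe sets lower and at most 1 higher, so that little could pass there. The 10 were 1416337_at of Uqcrb (-2.57), 1448292_at of Uqcr11 (-2.27), 1428631_a_at of Uqcrc2 (-2.08), 1422483_a_at of Cycs (-2.05), 1430326_s_at of Uqcrq (-1.73), 1450968_at of Uqcrfs1 (-1.67), 1428782_a_at of Uqcrc1 (-1.65), 1452133_at of Uqcrh (-1.54), and 1434340_at and 1434341_x_at of Uqcr10 (-1.20 and -1.11). Cyc1 had no probe set among them. Without mutant 1, other probe sets of Uqcrb (0.16), Uqcr10 (0.87), Uqcrq (0.73) and Cycs (1.01) lay above 0, not past the test. The called rise was the same probe set of Uqcrh, at 1.30. The mutant group then holds 2 mice. At an unadjusted p under 0.05 from limma, 7 to 9 of the 21 were lower without each other mouse, beside 6.33% to 9.71% of all probe sets, and 12 were lower without mutant 1, beside 11.7%. Without mutant 3 some differences were nearer 0, at -0.45 for 1452133_at of Uqcrh, -0.81 for 1430326_s_at of Uqcrq and -0.78 for 1422483_a_at of Cycs.

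**Figure D3:**
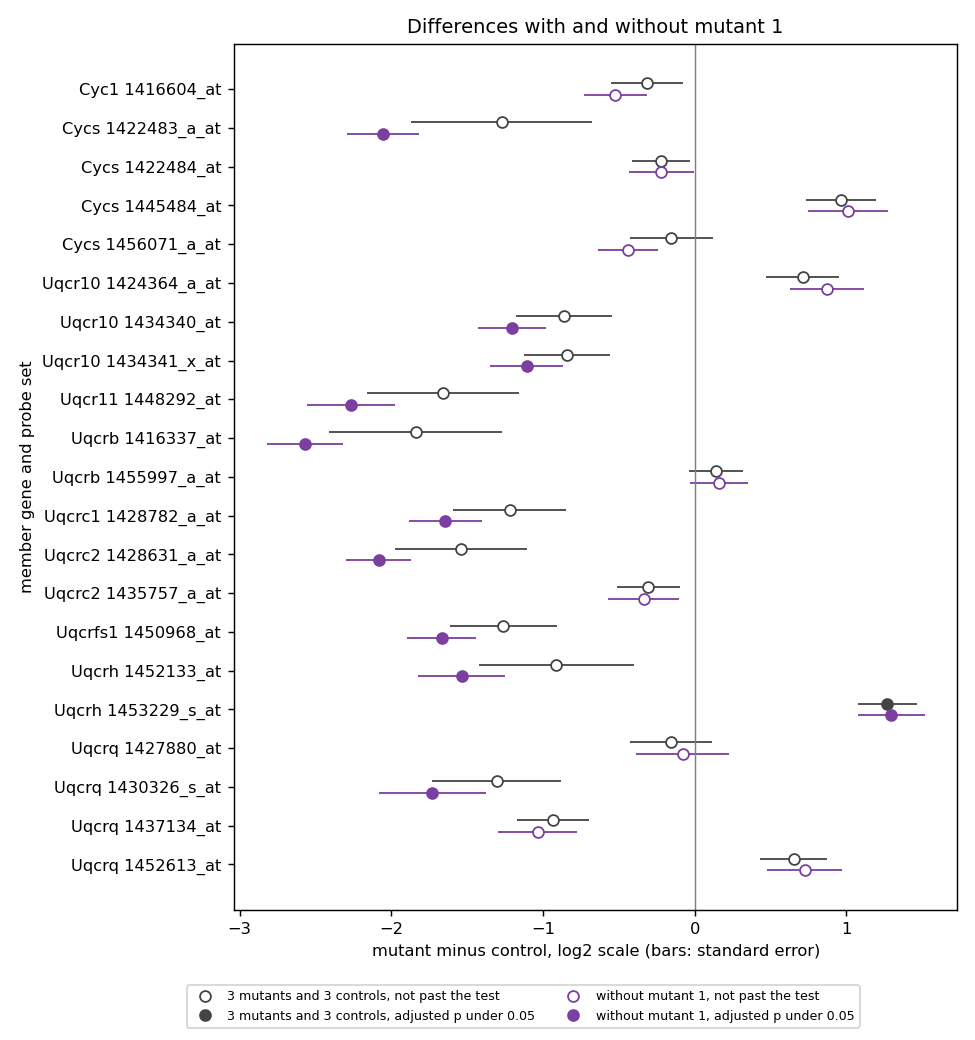
Log2 difference, mutant minus control, and its standard error (horizontal axis) for each probe set (vertical axis), with all 6 mice in grey and without mutant 1 in purple; filled points have an adjusted p under 0.05 from limma. With all mice 1 point is filled, 1453229_s_at of Uqcrh at 1.27, and without mutant 1 there are 11.

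The start regions of the members show which regulators can be looked for beside these values. NRF-1, a factor of many respiratory genes, and CREB, which binds the cyclic AMP response element, are both known to act on the cytochrome c gene. RefSeq start regions (GRCm38.p6, 250 bases before to 50 after the start) were at hand for 6 of the 10 members, Uqcrh, Cycs, Uqcrc1, Uqcr11, Uqcr10 and Uqcrfs1. On both strands, the NRF-1 core GCATGCGC was in those of Cycs, Uqcrc1 and Uqcr11, against 2.71% of 32851 start regions, and the response element TGACGTCA in those of Cycs and Uqcrfs1, against 1.79%. The motifs do not overlap each other. The 250 bases before the Cycs start hold both, and shorter stretches are given for the other 3 genes with a motif, Uqcr11, Uqcrc1 and Uqcrfs1. A link between the motifs and the differences was not tested. Capitals mark the motifs, and all stretches are 5′ to 3′ on the gene's strand.
Cycs (chr6:50566570-50566819, minus strand): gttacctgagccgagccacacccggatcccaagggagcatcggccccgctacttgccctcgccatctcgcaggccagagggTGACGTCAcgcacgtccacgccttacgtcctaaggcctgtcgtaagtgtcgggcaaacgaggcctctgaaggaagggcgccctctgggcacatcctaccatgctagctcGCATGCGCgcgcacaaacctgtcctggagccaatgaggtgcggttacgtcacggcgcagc
Uqcrc1 (chr9:108936669-108936697, plus strand): ctccgctctGCGCATGCGCagcgcggctc
Uqcr11 (chr10:80406805-80406834, minus strand): cgccttcacGCATGCGCtatacgtctgcac
Uqcrfs1 (chr13:30545325-30545354, minus strand): gcgtcgcgcTGACGTCAcaaaccctgcgcc
In Uqcrc1 the core is read on both strands, which is why 10 letters are capital. A match describes the letters only, and whether a factor bound there was not measured.

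Of 22 genes that build complex III, act with cytochrome c or bind the start regions of these genes, all were measured, by 49 probe sets. At an adjusted p under 0.05 from limma 2 of the 49 probe sets were higher and 0 were lower, against 1.25% and 0.746% of all probe sets. At an unadjusted p under 0.05 from limma 6 were higher and 9 lower, against 15.7% and 9.54% of all. Their median difference was -0.01. Both called probe sets belong to Cox7a2l, listed here as a factor linked to supercomplexes of complexes III and IV. These arrays do not measure supercomplexes. On 1432263_a_at it read 10.55, 10.94 and 10.06 in mutants and 8.43, 8.39 and 9.02 in controls (rise of 1.91, standard error 0.29, limma adjusted p = 0.0345), and on 1421772_a_at it rose by 1.51. Both passed without mutant 1 (limma adjusted p 0.0265 for 1432263_a_at and 0.0355 for 1421772_a_at). Neither passed without any other single mouse (limma adjusted p 0.0685 to 0.188) or with the replicate block. With median centring 1432263_a_at passed and 1421772_a_at did not (limma adjusted p = 0.0568). Its remaining probe set, 1432264_x_at, read 8.41, 7.12 and 6.93 in mutants and 7.87 to 8.05 in controls and differed by -0.49 (limma adjusted p = 0.46), so Cox7a2l, like Uqcrh, had probe sets of both signs.

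None of the 12 probe sets of the 7 assembly genes Uqcc1, Uqcc2, Uqcc3, Bcs1l, Lyrm7, Ttc19 and Hscb passed the test. Their median difference was -0.24, and at an unadjusted p under 0.05 from limma 2 were lower and 1 was higher, beside 9.54% and 15.7% of all probe sets. Uqcc2, which helps make cytochrome b, had the smallest p, with 8.21, 7.46 and 6.83 in mutants and 8.78, 8.70 and 8.71 in controls on 1448685_at (difference -1.23, limma adjusted p = 0.0816) and -0.53 on 1436810_x_at. Neither of the 2 probe sets of Hccs, the lyase that attaches heme to cytochromes c and c1, passed the test. Pmpcb, a subunit of the matrix peptidase that is related to the core proteins, differed by -1.47 on 1429709_at (mutants 8.57, 7.37 and 7.17, controls 8.94, 9.24 and 9.35, limma adjusted p = 0.0709) and by -0.94 on 1433729_x_at. On 1448685_at of Uqcc2 and 1429709_at of Pmpcb mutant 1 was the mutant nearest the controls, as on the lower probe sets of complex III.

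Of the transcription factors Nrf1, Gabpa, Esrra, Yy1 and Ppargc1a, none of 17 probe sets passed the test, with 3 lower and 2 higher where limma's unadjusted p was under 0.05, beside 9.54% and 15.7% of all probe sets. Gabpa, a subunit of NRF-2, read 6.80, 5.49 and 6.16 in mutants and 7.73, 7.87 and 7.53 in controls on 1450664_at (difference -1.56, limma adjusted p = 0.0552). On its other probe set, 1450665_at, it differed by 0.74 (limma adjusted p = 0.0768), the opposite way. Yy1 differed by -1.15 and -0.79 on 1422569_at and 1435824_at and by 0.12 and 0.40 on 1422570_at and 1457834_at. Nrf1, which encodes NRF-1, differed by 0.66 on 1424787_a_at (limma adjusted p = 0.101) and by -0.08 to 0.25 on the other 3. Ldhd, a D-lactate dehydrogenase that passes electrons to cytochrome c, differed by 0.81 on 1428614_at (limma adjusted p = 0.0684) and by 0.18 on 1428613_at. Suox, sulfite oxidase, which also passes electrons to cytochrome c, read 9.06, 8.46 and 7.67 in mutants and 9.53, 9.46 and 9.40 in controls on 1451339_at, a difference of -1.07 (limma adjusted p = 0.108) with each mutant below each control. The partners of released cytochrome c, Apaf1 and Casp9, had 0 of 5 probe sets past the test, and 0 at an unadjusted p under 0.05 from limma.

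**Figure D4:**
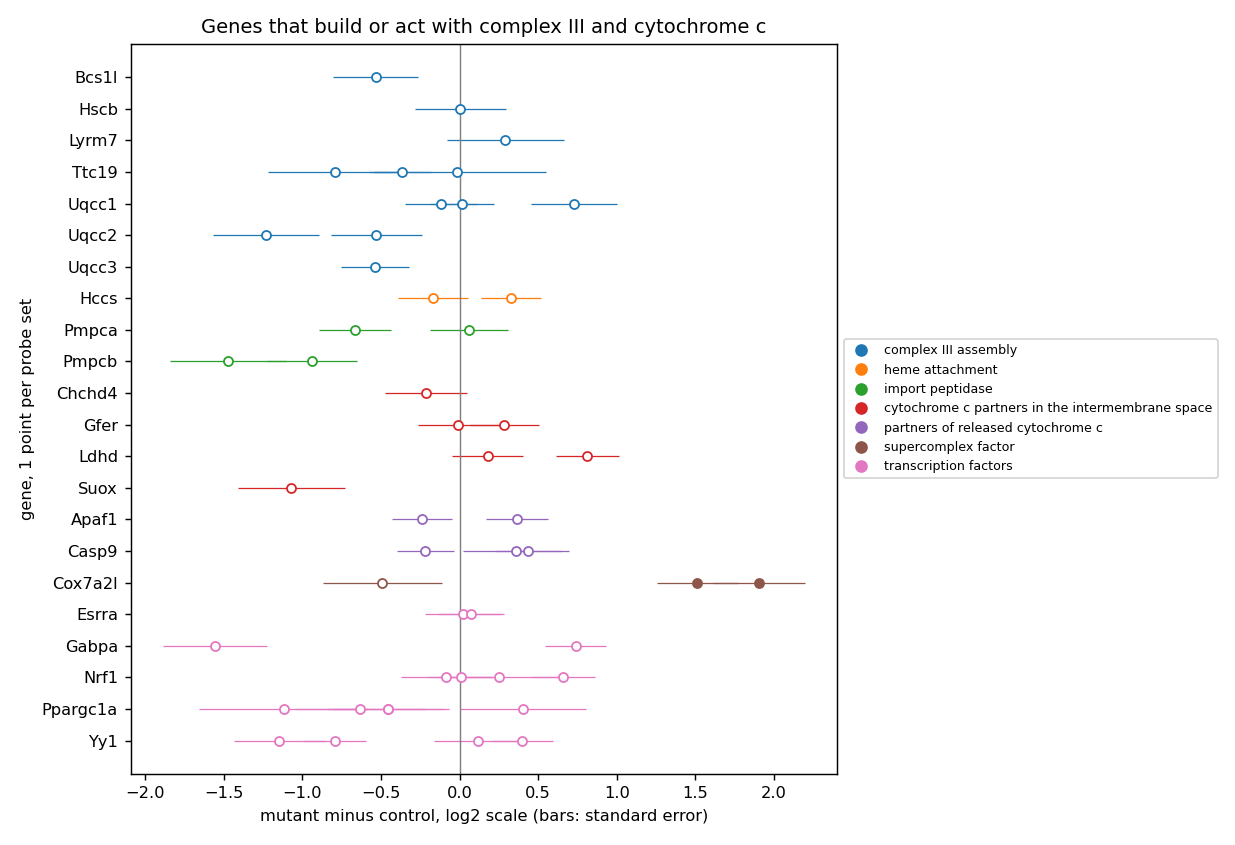
Log2 difference, mutant minus control, and its standard error (horizontal axis) for 22 genes that build or act with complex III and cytochrome c (vertical axis), with 1 point per probe set, colours by list and filled points for an adjusted p under 0.05 from limma. The 2 filled points belong to Cox7a2l, at 1.51 and 1.91, and its remaining probe set lies at -0.49.

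The mean of the brightest probe set of each of the 10 members was 11.18, 10.73 and 10.33 in mutants and 11.09, 11.15 and 11.23 in controls. Among 18183 other genes, each by its brightest probe set, those most like this profile over the 6 arrays were Lamp1, a lysosomal membrane protein (Pearson r = 0.9997), Ctsb, the lysosomal protease cathepsin B (0.996), and Degs1, an enzyme of ceramide synthesis (0.996). Lamp1 read 11.23, 10.33 and 9.58 in mutants and 11.03, 11.17 and 11.28 in controls. The 6 arrays share their scaling with all genes and were compared with many genes, so this is a description only.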

How the data were processed

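Liver RNA of 3 mutants and 3 controls was measured with 1 array per mouse, and groups were taken from sample titles. In dChip, the authors normalized probe-level data and fitted its perfect-match model, and the deposited values are log2 intensities per probe set and array, from 0 to 14.63, with 40 values of 0 and no detection calls, so signal over background is unknown. A C. elegans array is named in the methods, whereas these probe sets are of a mouse array. The dChip version was not given in the sources used here. Gene names came from the 2016 platform annotation.

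After 64 control probe sets were left out, 45037 were compared in R 4.3.3 with limma 3.58.1 (lmFit, eBayes), with p-values adjusted by Benjamini-Hochberg over all of them, at 0.05. For single values, an exact two-sided permutation test ran over 20 assignments. The comparison was tested on simulated data. The members and lists were chosen with earlier results of these data known. The named genes were all members, Pdss2, partner genes past the test and the 6 others of smallest p, up to 3 markers per list past the test, and the 3 genes most like the members. Hccs and Suox fall outside this rule and were chosen after their values were seen. The pairs plotted, the brightest probe set of a member and its lowest in difference, were chosen after their values were seen. Alternatives tried were median centring, quantile normalization, bright probe sets alone, trend and robust options of eBayes, a replicate block, age as a covariate, 1 value per gene and leaving out each mouse. The concurrent pair was added after seeing the data. Figures were drawn with matplotlib 3.10.9. The number of arrays limits the precision.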

Additional observations from a re-analysis of the deposited data

How the results depend on the processing

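The median difference of the 21 probe sets stayed below 0 in all alternatives on single probe sets, from -0.45 without mutant 3 to -1.03 without mutant 1. That median was not taken with 1 value per gene. By the brightest probe set, Uqcrh (1.27), Uqcr10 (0.71) and Uqcrb (0.14) lay above 0. The other members lay below, from -0.15 for Cycs to -1.66 for Uqcr11. By the average per gene only Uqcrh lay above 0 (0.18), and the others ran from -0.17 for Cycs to -1.66 for Uqcr11. Counts at an adjusted p under 0.05 from limma moved more. Among the members, the number lower was 1 with bright probe sets alone and 0 to 10 over the mice left out, and the number higher was 2 with bright probe sets alone, 0 with median centring, 0 with the replicate block and 0 to 1 over the mice left out. With probe sets averaged per gene 0 members were called. Among partner probe sets, the number lower was 5 with bright probe sets, 1 with trend and robust options, 1 with age and 0 to 7 over the mice left out, and the number higher was 4 with bright probe sets, 1 with median centring, 0 with the block and 0 to 2 over the mice left out. Over all probe sets, 336 were lower and 561 higher, and these became 150 and 150 with median centring, 1463 and 1587 with bright probe sets, 549 and 864 with trend and robust options, 1123 and 1392 with age, and 0 to 2551 and 0 to 1289 over the mice left out. Median centring took the median difference of all probe sets from 0.17 to 0.01 and the share of calls that were higher from 62.5% to 50%. Of the members' own differences 3 turned sign, Uqcrb 1455997_a_at with median centring (-0.021), Cycs 1456071_a_at without mutant 3 (0.018, range over the mice left out -0.44 to 0.018) and Uqcrq 1427880_at without control 3 (0.12, range -0.31 to 0.12). The cause of these shifts was not tested.

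The labels tie mutant 3 to control 1, which do not share a replicate number. Deviations of same-numbered mice correlated at 0.06, -0.50 and -0.56. Those of mutant 3 with control 1 correlated at 0.45, and those of mutant 2 with control 3 at 0.62. The deviations are from group means and sum to 0 within each group, so these values cannot show whether mice were paired. With the replicate block 0 probe sets were lower and 0 higher over the whole array from limma, with 7935 at an unadjusted p under 0.05, and the rise of Uqcrh 1453229_s_at had an adjusted p of 0.186.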
